A study of Mus musculus with 22 samples.

Results

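Long noncoding RNA genes are transcribed by RNA polymerase II from promoters of their own, and where such a promoter is in use its nucleosomes carry trimethylation of histone H3 at lysine 4 (H3K4me3), as at the start of a protein-coding gene. The 328 regions described here were H3K4me3 peaks over the start of a noncoding RNA gene and away from any protein-coding start, in mouse G1E-ER4 cells (called G1ER in the study). The 10 H3K4me3 peak lists were merged where they touched. A region was kept if 2 or more lists had a peak in it and it held the transcription start site (TSS) of a GENCODE lincRNA, lncRNA, antisense or processed_transcript gene, with no protein-coding TSS inside it or within 2 kb. Of 14862 regions found in 2 or more lists, 1285 held a noncoding TSS. A protein-coding TSS also lay inside 943 of these and within 2 kb of another 14, which left the 328.

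G1E-ER4 is a clonal erythroid progenitor line that lacks endogenous GATA1 and carries GATA1 fused to the ligand-binding domain of the estrogen receptor. All groups shared this background and were grown with stem cell factor and erythropoietin, and β-estradiol turned the fusion protein on. Cells had no β-estradiol (0 h) or had it for 2, 6, 12, or 24 h. At each time point there were 2 H3K4me3 lists and 2 lists of H3K27ac, an acetylation found at active promoters and enhancers. CTCF, a DNA-binding protein at loop anchors, had 1 list at 0 h and 1 at 24 h. The lists gave positions and a score for each peak, taken here to be that of the peak caller, and no read counts, so the depth was unknown. The value used throughout was the covered length, the number of base pairs of a region under a list's peaks. H3K4me3 lists held 12925 to 14452 peaks and H3K27ac lists 17247 to 18333. Peaks lay over a TSS of 9 of 15 erythroid genes in all 10 H3K4me3 lists, over Kit, Gfi1b, Nfe2, Zfpm1, and Alas2 in 8 or 9 lists, and over Tal1 in none. The 13 marker genes of T cells, B cells, macrophages, hepatocytes, and neurons had no H3K4me3 peak over a TSS in any list. The study describes its ChIP-seq replicates as independent experiments, while the labels give only their numbers.

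Long noncoding RNAs act in several ways. Some, such as Malat1 and Neat1, build or occupy bodies in the nucleus, some silence genes on the chromosome that makes them, and others are precursors from which small nucleolar RNAs (snoRNAs) or microRNAs are cut. In erythroid cells GATA1 binds the letters AGATAA or AGATAG, or the same with T as first letter in TGATAA or TGATAG, and activates or represses nearby genes. The promoters printed next are those whose H3K4me3 or H3K27ac length passed the test at 24 h against 0 h, with that of Mir17hg beside them. Each runs from 250 bases before to 50 bases after the TSS, 5′ to 3′ on the strand of the gene, from GRCm38. Capitals mark the 4 GATA spellings on either strand.

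H3K4me3 was longer at 24 h at 1810058I24Rik (chr6:35252404-35252703, plus strand), shorter at Pvt1 (2) (chr15:62222353-62222652, plus strand), and lost at Gm29114 (chr1:69513682-69513981, plus strand) and C230038L03Rik (chr7:96946985-96947284, minus strand). The number in brackets after a gene name tells apart regions over different TSSs of one gene.
1810058I24Rik: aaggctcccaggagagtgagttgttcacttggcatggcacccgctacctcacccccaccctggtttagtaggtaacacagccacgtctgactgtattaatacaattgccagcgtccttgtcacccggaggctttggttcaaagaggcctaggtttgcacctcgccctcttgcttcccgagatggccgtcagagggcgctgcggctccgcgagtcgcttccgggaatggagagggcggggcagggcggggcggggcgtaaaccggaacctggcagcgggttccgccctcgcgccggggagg
Pvt1 (2): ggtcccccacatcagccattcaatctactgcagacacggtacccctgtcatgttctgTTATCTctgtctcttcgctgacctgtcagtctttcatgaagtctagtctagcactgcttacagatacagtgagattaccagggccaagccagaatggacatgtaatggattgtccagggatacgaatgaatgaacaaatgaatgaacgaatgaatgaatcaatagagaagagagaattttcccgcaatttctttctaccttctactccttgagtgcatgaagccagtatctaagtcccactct
Gm29114: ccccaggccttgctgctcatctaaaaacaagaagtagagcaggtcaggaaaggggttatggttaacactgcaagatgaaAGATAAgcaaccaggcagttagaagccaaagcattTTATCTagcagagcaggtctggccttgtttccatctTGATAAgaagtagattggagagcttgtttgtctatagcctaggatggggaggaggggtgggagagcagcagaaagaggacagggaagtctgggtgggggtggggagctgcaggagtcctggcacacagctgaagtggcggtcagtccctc
C230038L03Rik: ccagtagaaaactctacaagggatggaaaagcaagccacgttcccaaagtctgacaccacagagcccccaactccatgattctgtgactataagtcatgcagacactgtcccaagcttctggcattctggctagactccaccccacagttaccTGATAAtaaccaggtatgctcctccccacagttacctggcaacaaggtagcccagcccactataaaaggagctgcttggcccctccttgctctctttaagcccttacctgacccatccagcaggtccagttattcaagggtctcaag
Gm29114 held 3 GATA spellings, 171, 136, and 100 bases before its TSS. C230038L03Rik held 1 at 97 bases before its TSS and Pvt1 (2) held 1 at 193 bases before. In 1810058I24Rik none was found. The same 4 sequences differed in CG dinucleotides, with 23 in 1810058I24Rik, 5 in Pvt1 (2), and 1 each in Gm29114 and C230038L03Rik.

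H3K27ac passed the test at E330020D12Rik (chr1:153414184-153414483, minus strand), 1810026B05Rik (2) (chr7:73558346-73558645, minus strand), Airn (chr17:12741061-12741360, plus strand), and Gm48730 (chr13:95535340-95535639, plus strand).
E330020D12Rik: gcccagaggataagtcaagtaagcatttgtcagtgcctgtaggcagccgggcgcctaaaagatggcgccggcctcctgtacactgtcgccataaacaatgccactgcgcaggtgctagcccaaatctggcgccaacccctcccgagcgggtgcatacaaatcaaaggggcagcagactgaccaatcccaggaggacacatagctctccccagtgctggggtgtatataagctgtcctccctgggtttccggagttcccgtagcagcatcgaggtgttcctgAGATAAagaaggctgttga
1810026B05Rik (2): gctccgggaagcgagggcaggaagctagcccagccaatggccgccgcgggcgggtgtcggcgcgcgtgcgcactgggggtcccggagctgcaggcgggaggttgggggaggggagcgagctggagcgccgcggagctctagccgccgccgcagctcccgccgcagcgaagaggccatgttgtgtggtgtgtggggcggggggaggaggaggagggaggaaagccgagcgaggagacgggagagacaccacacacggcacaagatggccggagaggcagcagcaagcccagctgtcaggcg
Airn: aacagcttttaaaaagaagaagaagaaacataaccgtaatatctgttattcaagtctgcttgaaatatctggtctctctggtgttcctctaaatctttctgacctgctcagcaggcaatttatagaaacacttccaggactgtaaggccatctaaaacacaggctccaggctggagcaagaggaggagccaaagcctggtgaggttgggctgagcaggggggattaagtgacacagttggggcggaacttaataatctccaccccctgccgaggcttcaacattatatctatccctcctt
Gm48730: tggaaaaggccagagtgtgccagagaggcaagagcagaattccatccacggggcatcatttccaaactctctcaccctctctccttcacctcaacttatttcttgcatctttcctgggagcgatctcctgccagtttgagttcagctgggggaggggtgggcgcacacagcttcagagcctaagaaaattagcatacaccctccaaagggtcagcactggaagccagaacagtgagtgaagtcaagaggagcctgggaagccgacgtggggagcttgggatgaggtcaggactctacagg
Among these, E330020D12Rik had the only GATA spelling, 31 bases after its TSS. CG dinucleotides numbered 12, 30, 3, and 5 in the order printed.

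Mir17hg (chr14:115042629-115042928, plus strand) is shown as a region with H3K4me3 and H3K27ac in all 10 lists and no difference past the test.
Mir17hg: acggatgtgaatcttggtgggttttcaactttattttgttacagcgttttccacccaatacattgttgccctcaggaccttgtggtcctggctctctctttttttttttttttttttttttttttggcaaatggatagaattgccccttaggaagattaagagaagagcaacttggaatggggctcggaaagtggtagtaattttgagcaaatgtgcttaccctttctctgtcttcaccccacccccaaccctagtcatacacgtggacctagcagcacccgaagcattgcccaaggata
It held no GATA spelling. Over all 328 promoters, 108 did (32.9%, 95% Wilson interval 28.1% to 38.2%). The share was 19.1% (18.3% to 19.9%) at 9345 of the 9347 regions holding a protein-coding TSS, and 27.6% (26.96% to 28.1%) over the gene starts of 21938 protein-coding genes. The median GC content of noncoding promoters was 53%, against 61% at regions with a protein-coding TSS and 55% over all protein-coding gene starts. The median ratio of observed to expected CpG was 0.479, 0.766, and 0.525 in the same order. At noncoding regions the TSS used was the most upstream one of the naming gene in the region. At protein-coding regions it was the TSS of lowest coordinate on either strand, so these windows were not chosen alike. A match of letters is a description of the sequence and not evidence of binding.

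The 328 regions were named by 319 genes, since 9 genes had a second region. LincRNA genes named 204 regions, processed_transcript genes 65, and antisense genes 59, while 26 regions held TSSs of several noncoding genes. The TSS lay outside every protein-coding gene at 287 regions, inside one on the opposite strand at 36, and inside one on the same strand at 5. The nearest protein-coding TSS was a median of 19198 bp away, and 79 regions were more than 50 kb from one. The regions nearest to the limit of 2 kb were Gm45069, 2023 bp from the TSS of Zfp667, Epb41l4aos, 2068 bp from that of Epb41l4a, and Gm44632, 2090 bp from that of Dpf1. A further 17 regions met the TSS rule but had a peak in only 1 list. Regions over antisense genes had H3K4me3 in all 10 lists in 64.4% of 59 cases, those over lincRNA genes in 82.4% of 204, and those over processed_transcript genes in 83.1% of 65, and the difference was not tested.

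H3K4me3 was present in all 10 lists at 260 of the 328 regions (79.3%, 74.6% to 83.3%). The share was 95.2% (94.8% to 95.6%) of 9347 regions holding a protein-coding TSS. It was 44.0% (42.5% to 45.6%) of 3990 regions with no annotated TSS within 2 kb and 77.4% of all 14862 regions. Noncoding regions were 2292.5 bp wide (median), between 2940 bp for protein-coding and 1193.5 bp for regions without a TSS. The 68 regions with a peak in 2 to 9 lists were narrower than the 260 (median 1051.5 against 2488.5 bp). Their peaks ranked lower by the authors' score within their list, at a mean percentile of 8.98 (median) against 39.6. Their promoters had a median CpG ratio of 0.304 against 0.556. The part of sequencing depth in the listing of these weak peaks was not tested.

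The number of noncoding regions with an H3K4me3 peak was 306 and 312 at 0 h, 311 and 295 (2 h), 296 and 303 (6 h), 291 and 290 (12 h), and 283 and 295 (24 h). All lists from 6 h on were below both lists at 0 h, while 1 list at 2 h lay between them. As means this was 309 ± 4.24 at 0 h and 289 ± 8.49 at 24 h (SD, n = 2). In an exact permutation test, 2 lists against 2 cannot go below p = 0.33. The total number of H3K4me3 regions found also fell, from 13846 ± 197 to 12850 ± 107 of 14862 (SD, n = 2). In shares, noncoding regions went from 94.2% to 88.1%, protein-coding regions from 98.5% to 97.6%, and regions without a TSS from 84.0% to 64.9%. Of the 68 noncoding regions that lacked a peak in some list, 41 had a peak in both lists at 0 h and 16 in both lists at 24 h.

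**Figure D1:**
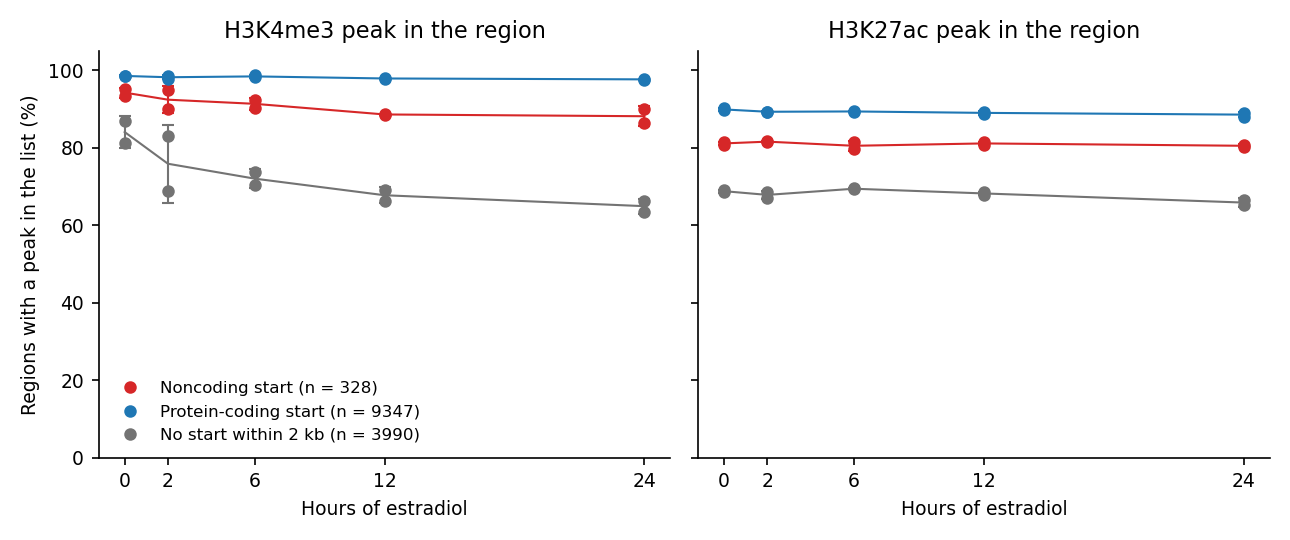
Share of regions with an H3K4me3 peak (left) or an H3K27ac peak (right) in each list, in percent, against hours of β-estradiol, for noncoding TSS regions, protein-coding TSS regions, and regions without a TSS. Points are lists, and lines and bars are the mean ± SD (n = 2). Noncoding regions lay between the other classes for both marks.

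H3K27ac was found in 261 to 268 of the 328 regions per list, with 266 ± 1.41 at 0 h and 264 ± 1.41 at 24 h (SD, n = 2). It was in all 10 lists at 228 regions (69.5%, 64.3% to 74.2%) and in none at 30 (9.15%, 6.48% to 12.8%). All 10 lists held it at 83.4% (82.6% to 84.1%) of protein-coding regions and at 52.0% (50.5% to 53.6%) of regions without a TSS. Over all 14862 regions it was in all 10 lists at 71.4% and in none at 9.88%, near the noncoding shares. CTCF lay in 110 noncoding regions at 0 h (33.5%, 28.6% to 38.8%) and 116 at 24 h (35.4%, 30.4% to 40.7%). Of these, 15 regions had it only at 24 h and 9 only at 0 h. The CTCF share was 32.7% and 41.6% at protein-coding regions, and 29.6% and 36.2% over all regions. The CTCF list was longer at 24 h, with 41473 peaks against 33193, and had no replicate.

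Of the RNAs on the lists of known function, those that met the rule had H3K4me3 of 1 kb or more in every list, with the exception of Neat1, while others on the lists, such as Xist and H19, had no H3K4me3 region over a TSS. Among the nuclear body and scaffold RNAs, 4 of 5 annotated genes were among the 328 regions. Malat1, an abundant RNA of nuclear speckles, had the largest mean covered length of all, from 8263 to 8990 bp in the 10 lists. Firre, an X-linked RNA with many repeats, had 1935 to 2476 bp, and 2900097C17Rik, the mouse Norad gene, had 2675 to 3769 bp. Neat1, the scaffold of paraspeckles, is described with the changes. None of these 4 passed the test for H3K4me3 at 24 h against 0 h, where Neat1 had an adjusted p of 0.16 and the other 3 had values of 0.68 or more (limma, Benjamini-Hochberg).

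In the X inactivation center, Tsix and Ftx were members, and no H3K4me3 region lay over a TSS of Xist or Jpx. Tsix, the antisense partner of Xist, had 3694 to 4619 bp. The 2 regions of Ftx, which hosts microRNAs, had 2442 to 2792 bp and 1211 to 1790 bp. Of 9 imprinted RNA genes, 2 were members. Kcnq1ot1, which lies antisense within Kcnq1 and silences neighboring genes on the paternal chromosome, had 3707 to 4871 bp. Airn, which does the same from within Igf2r, had 2056 to 2630 bp. H19, Meg3, Rian, Mirg, and Snhg14 had no H3K4me3 region over a TSS. None of the 5 member regions passed the test for H3K4me3 at 24 h (limma adjusted p from 0.48 to 0.76).

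Hosts of snoRNAs were 9 of 16 annotated genes on that list. Snhg5, Snhg6, Snhg8, Snhg12, Snhg15, Snhg17, Snhg20, Dancr, and Epb41l4aos all had H3K4me3 and H3K27ac in all 10 lists. Their mean covered lengths ran from 2834 bp at Snhg12 to 4183 bp at Snhg17. Snhg15 alternated between a shorter and a longer form, with 2387 to 2501 bp in 3 lists and 3797 to 4847 bp in the other 7, and replicates at 0, 2, and 6 h differed in the form they had. Another 6 hosts on the list were not members because a protein-coding TSS lay in or within 2 kb of their H3K4me3 region. By annotation alone, 16 of the 328 regions belonged to a gene that contains a snoRNA or scaRNA, and all 16 had both marks in all 10 lists, a count made after the values were seen. Over the 328, H3K4me3 was in all 10 lists at 79.3% and H3K27ac at 69.5%. Of 17 regions of genes that contain a microRNA, 12 had H3K27ac in all 10. The 16 were also wide, with a median of 3565 bp against 2292.5 bp over the 328. The part of width was not tested. None of the 9 listed hosts passed the test at 24 h (limma adjusted p from 0.48 to 1).

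Of the microRNA hosts, Mir17hg and Dleu2 were members of 8 annotated genes. Mir17hg, which carries a microRNA cluster that promotes cell growth, had 4351 to 5182 bp of H3K4me3. Dleu2, a host of microRNAs that restrain growth, had regions over 2 of its TSSs. Dleu2 (1) had 4073 and 4391 bp at 0 h, 4028 and 3800 bp (2 h), 5921 and 3837 bp (6 h), 5942 and 5689 bp (12 h), and 6112 and 6104 bp (24 h). Both lists at 12 h and 24 h were longer than both at 0 h, but the difference at 24 h did not pass the test (log2 difference 0.51 ± 0.17 SE, limma adjusted p = 0.25). Dleu2 (2) had 5179 to 5940 bp, with no separation by time.

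Of 13 annotated RNAs linked to blood cells, Pvt1 and Trp53cor1 were members. Trp53cor1, the p53-induced lincRNA beside Cdkn1a, had 1838 to 2364 bp. Hotairm1, Hotair, Hottip, and the antisense RNAs of the Hoxa and Hoxb clusters on the list had no H3K4me3 region over a TSS. Conserved RNAs linked to growth included 1700020I14Rik, the mouse Cyrano gene (2814 to 3061 bp), Platr4 (1126 to 1796 bp), and Lockd (5165 to 6217 bp). The region of Lockd lay 4842 bp from the TSS of Cdkn1b. H3K27ac filled most of 1700020I14Rik in all 10 lists, whereas at Lockd it was listed in only 1, at 0 h.

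**Figure D2:**
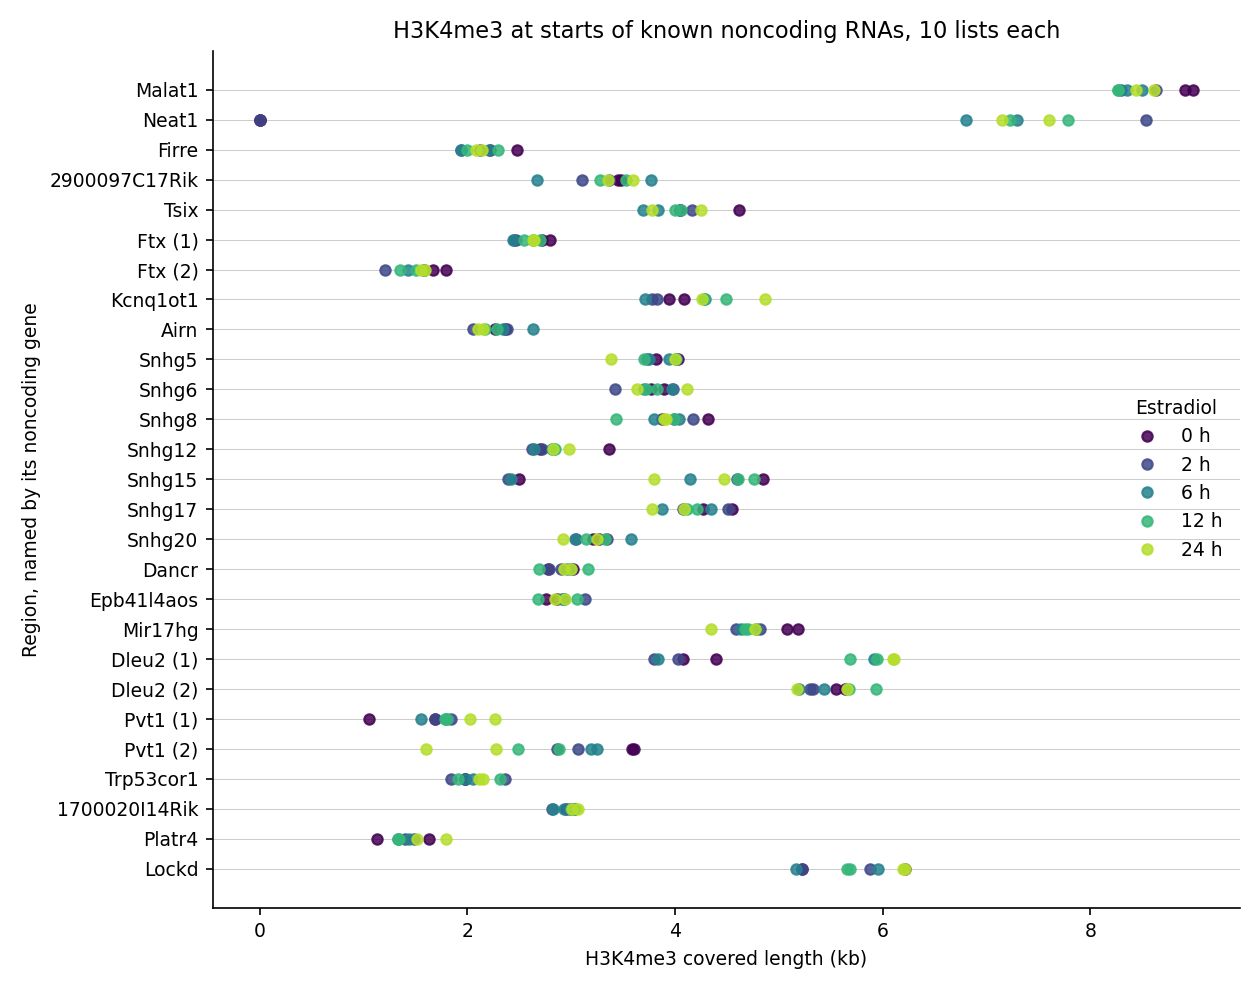
H3K4me3 covered length in kb at each noncoding region of the lists of known RNAs, 1 point for each of 10 lists, colored by hours of β-estradiol. Malat1 was the longest on average, Neat1 was at 0 in 3 lists, and at Pvt1 (2) both lists at 0 h were above and both at 24 h below all others.

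At 24 h against 0 h, covered length of H3K4me3 increased at 1 of 328 noncoding regions and decreased at 3 (limma, Benjamini-Hochberg over 14862 regions). Over all regions, 0.471% passed as longer and 1.11% as shorter, so the counts of 1 and 3 (0.305% and 0.915%) lay near the background. Of the 3, C230038L03Rik met the rule of 2 lists only through those at 0 h, where it was long. With each length divided by the median peak length of its list, 1 was longer and 8 were shorter (69 and 243 over all regions). With an equal number of top-scoring peaks per list, 3 were longer and 1 was shorter (75 and 87 over all regions). Leaving out 1 list gave 0 to 3 longer and 0 to 6 shorter, with 0 of both without the first list at 0 h (29 and 46 over all regions) and 6 shorter without the second at 24 h (202). No noncoding region passed at 2, 6, or 12 h, where 0.0538%, 0.148%, and 0.316% of all regions did. At an unadjusted p below 0.05, 5 noncoding regions were longer and 19 shorter at 2 h (0.855% and 4.42% of all regions). The counts were 2 longer with 22 shorter at 6 h (1.08% and 7.12%), 5 with 24 at 12 h (1.19% and 7.3%), and 12 with 35 at 24 h (3.58% and 8.81%). The median log2 difference of noncoding regions at 24 h was -0.0595, against -0.0352 over all regions. The plot of differences against length shows most regions near 0.

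**Figure D3:**
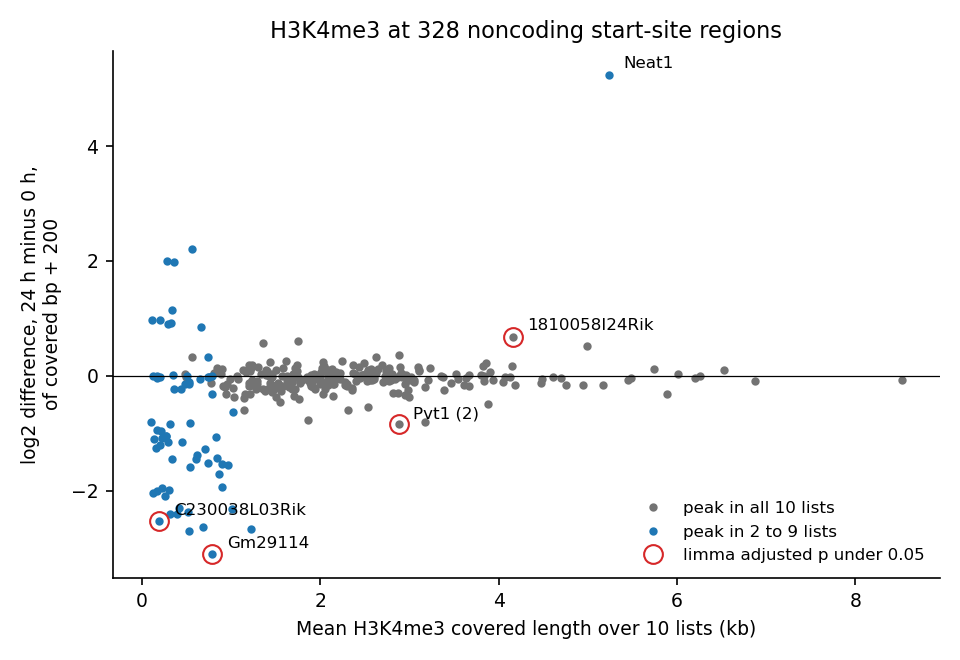
Log2 difference in H3K4me3 covered length (24 h minus 0 h, with 200 bp added) against mean covered length in kb for the 328 noncoding regions. Gray points had a peak in all 10 lists, blue points in 2 to 9, and red circles mark the 4 that passed limma. Large differences were found among the narrow regions and at Neat1.

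The region that increased was 1810058I24Rik, a lincRNA gene whose region (chr6:35252191-35257966) lay 7017 bp from the TSS of Nup205. H3K4me3 covered 3491 and 3299 bp at 0 h, 3653 and 3811 bp (2 h), 3424 and 4038 bp (6 h), 4074 and 4657 bp (12 h), and 5573 and 5574 bp (24 h). Both lists at 24 h were above all others, and the lists at 0 h overlapped only those at 6 h. The log2 difference was 0.68 ± 0.09 (SE), with a limma adjusted p of 0.013, and the F test over the 5 time points gave an adjusted p of 0.047. H3K27ac already covered 5660 and 5776 bp of this region at 0 h and 5776 bp in both lists at 24 h. Both CTCF lists held a peak there. Without the first or the second list at 0 h the adjusted p was 0.072 or 0.087, and without the first list at 24 h it was 0.054.

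Pvt1, a lincRNA gene downstream of Myc, had 2 regions over TSSs inside the gene, and 1 of them decreased. Pvt1 (2) (chr15:62220464-62224240), 233042 bp from the TSS of Myc, had 3584 and 3607 bp at 0 h, 3065 and 2860 bp (2 h), 3247 and 3189 bp (6 h), 2887 and 2492 bp (12 h), and 1600 and 2276 bp (24 h). Both lists at 24 h were below all others and both at 0 h were above all others. The log2 difference was -0.85 ± 0.14 (SE), with a limma adjusted p of 0.032. Pvt1 (1) (chr15:62098032-62100380), 110610 bp from the TSS of Myc, had 1054 and 1687 bp at 0 h, 1685 and 1843 bp (2 h), 1799 and 1555 bp (6 h), 1808 and 1788 bp (12 h), and 2265 and 2028 bp (24 h). Here both lists at 24 h were above all others, but the difference did not pass the test (0.61 ± 0.18 SE, limma adjusted p = 0.20). The difference between the 2 regions was not tested. H3K27ac covered all 3777 bp of Pvt1 (2) in every list and 2066 to 2349 bp of Pvt1 (1). The call at Pvt1 (2) was lost on leaving out either list at 0 h, 2 h, or 6 h (adjusted p from 0.0518 to 0.171) and in a fit of the lists at 0 h and 24 h alone (0.235), as well as without a trend in the variance (0.0634).

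Gm29114, an antisense gene whose region (chr1:69513342-69515093) lay 169064 bp from the TSS of Ikzf2, had no H3K4me3 peak left at 24 h. Covered length was 1346 and 1706 bp at 0 h, 1219 and 1079 bp (2 h), 1039 and 916 bp (6 h), 580 and 0 bp (12 h), and 0 bp in both lists at 24 h. Both lists at 0 h were above all later lists, and the lists at 2, 6, and 12 h did not overlap. H3K27ac covered all 1752 bp in all 10 lists, those without H3K4me3 included. The H3K4me3 peaks scored 59.4 to 182, at a mean percentile of 14.5 within their lists. The limma adjusted p at 24 h was 0.046. It rose above 0.05 on leaving out any list other than those at 12 h (0.0697 to 0.235). It was also 0.0725 with 50 bp added in place of 200 bp, 0.0708 without a trend in the variance, and 0.0554 with an equal number of top-scoring peaks per list.

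C230038L03Rik, a processed_transcript gene whose region (chr7:96946130-96947366) lay 4139 bp from the TSS of Nars2, had H3K4me3 only at 0 h. The peaks covered 1237 and 728 bp at 0 h and 0 bp in the other 8 lists. The limma adjusted p at 24 h was 0.040, and it rose to between 0.0642 and 0.189 on leaving out either list at 6, 12, or 24 h and to 0.0542 in a fit of the lists at 0 h and 24 h alone. Without either list at 0 h the region had a peak in only 1 list and no value. It met the rule of 2 lists only through those at 0 h, so the rule itself fixed the direction of this difference. H3K27ac was listed here once at 0 h (1237 bp) and once at 2 h (740 bp). Scores of these H3K4me3 peaks were 75.6 and 76.2, at a mean percentile of 8.45 within their lists. Fitted differences against lists at 0 bp depend on the 200 bp that were added, so no fold is given for this gene or for Gm29114.

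**Figure D4:**
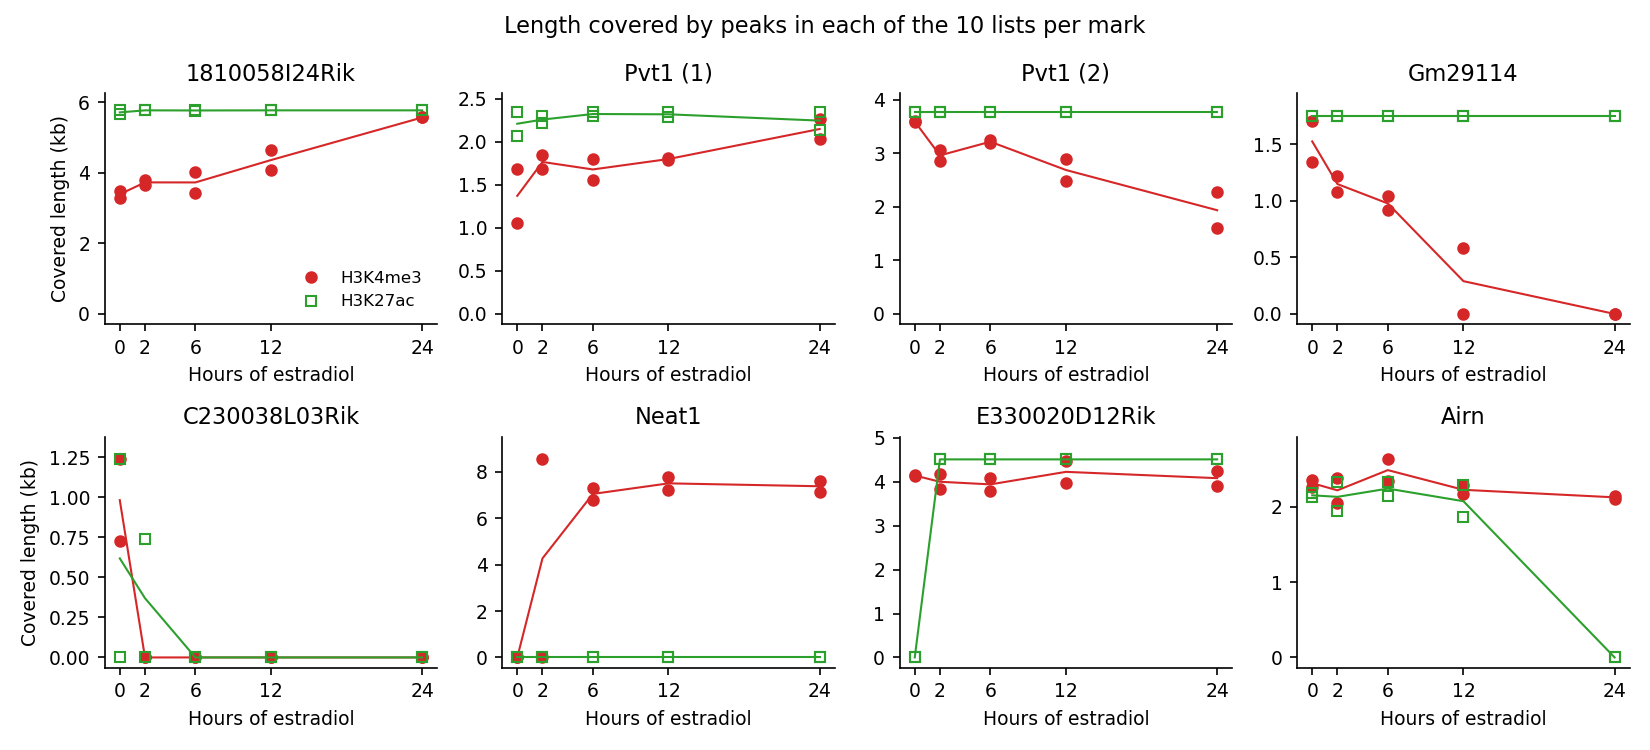
Covered length in kb of H3K4me3 (filled red circles) and H3K27ac (open green squares) against hours of β-estradiol at 8 noncoding regions. Points are lists and lines join the means of 2. H3K4me3 lengthened at 1810058I24Rik and shortened at Pvt1 (2) and Gm29114 while H3K27ac covered nearly the whole region. H3K27ac was listed at E330020D12Rik only from 2 h on and at Airn only up to 12 h, under a steady length of H3K4me3.

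By presence alone, a region was called gained or lost if both lists of one time point held a peak and neither list of the other did. At 24 h, 3 noncoding regions were gained and 13 lost, or 0.915% and 3.96%, against 0.498% and 4.24% of all regions. With an equal number of top-scoring peaks per list the counts were 8 gained and 4 lost (193 and 215 over all regions, where 74 and 630 were found with all peaks). Without the first and second list at 24 h, 6 and 5 were gained (191 and 142 over all regions), and without the second 25 were lost (992 over all regions). Earlier, 5 regions appeared with 6 lost by 2 h (0.437% and 1.61% of all regions), 3 with 6 by 6 h (0.525% and 2.21%), and 4 with 13 by 12 h (0.323% and 3.14%). Of the 13 lost at 24 h, 6 had H3K27ac in all 10 lists and 5 had it in none. Over the 68 noncoding regions with H3K4me3 in 2 to 9 lists, the 13 included, the shares were 33.8% and 27.9%. The difference was not tested. The 13 ranked low by score, at a median percentile of 8.45 within their lists, with a highest value of 15.9. Besides Gm29114 and C230038L03Rik, those with the longest peaks in the lists that held one were Gm45479, Gm13429, 4930572G02Rik, and Gm12746. Gm45479 lies antisense within Irf2 and had 1070 and 1146 bp at 0 h, 1178 and 1037 bp (2 h), 0 and 895 bp (6 h), and 0 bp after that, with H3K27ac in all 10 lists. Gm13429 had 979 to 1392 bp up to 2 h and 0 bp at 24 h, with no H3K27ac in any list. At 4930572G02Rik and Gm12746 the peaks came and went between replicates at 2 to 12 h, while H3K27ac covered the whole region in every list. None of these 4 passed limma (adjusted p from 0.15 to 0.48).

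Neat1 had the longest H3K4me3 peaks among the gained regions. Covered length was 0 bp in both lists at 0 h, 0 and 8537 bp (2 h), 7294 and 6801 bp (6 h), 7782 and 7225 bp (12 h), and 7606 and 7151 bp (24 h). All lists from 6 h on thus held a peak and both lists at 0 h held none, but the adjusted p was 0.16 (limma), with the 2 lists at 2 h at opposite ends of the range. The nearest H3K27ac peak of any list was 19164 bp from the region. Its H3K4me3 peaks scored 66.6 to 439.5. The other gained regions were small. Gm45894 and Gm41336 at 24 h had peaks of 594 and 602 bp and of 341 and 951 bp.

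Over the 5 time points the F test passed for 2 noncoding regions (1.25% of all regions passed). Besides 1810058I24Rik this was Gm38973, a processed_transcript gene whose region lay 2511 bp from the TSS of Ttc9b. H3K4me3 covered 536 and 998 bp at 0 h, 898 and 795 bp (2 h), 0 bp at 6 h and 12 h, and 569 and 625 bp (24 h), with an F test past the threshold (limma adjusted p = 0.028). The peak was thus missing at 2 neighboring time points and present before and after them, at scores of 50.1 to 111. Gm40864 (adjusted p = 0.066) was at 0 bp in both lists at 12 h alone. Gm47547 (0.069) had 510 to 632 bp up to 2 h and 0 bp from 6 h on.

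For H3K27ac, 285 of the 328 regions could be tested, since the others held it in fewer than 2 lists. At 24 h against 0 h the covered length inside the region was longer at 1 and shorter at 3, against 1.3% and 0.981% of 12952 regions tested (limma). Leaving out 1 list gave 1 to 7 longer, with 5 and 6 without the first and second list at 0 h (384 and 285 over all regions, against 169 with all lists) and 7 without either at 2 h (212). Without the first and second list at 24 h, 11 and 8 were shorter (391 and 293 over all regions, against 127). At 2 h the counts were 1 longer and 2 shorter (0.656% and 0.587% of all), at 6 h 2 and 2 (0.788% and 0.355%), and at 12 h 2 and 3 (0.965% and 0.51%). E330020D12Rik, a processed_transcript gene whose region lay 9539 bp from the TSS of Shcbp1l, had 0 bp of H3K27ac in both lists at 0 h. The other 8 lists had 4508 bp, the whole region (limma adjusted p at 24 h = 1.1e-11). The length was capped at the width of the region, which left no spread between these 8 lists, so the size of p does not measure how closely the replicates matched. H3K4me3 stayed between 3789 and 4475 bp there. At 1810026B05Rik (2), which lies 10192 bp from the TSS of Chd2, H3K27ac covered 6155 and 6717 bp at 0 h. All later lists had 0 bp (limma adjusted p = 4.8e-07). These later lists thus had no spread either, and the size of this p has the same limit. The region could be tested only because both lists at 0 h held H3K27ac, so that filter fixed the direction of the difference. Without either list at 0 h it was not tested. H3K4me3 at that region ranged from 4754 to 8461 bp without order in time.

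At Airn, H3K27ac covered 2127 and 2179 bp at 0 h, 1939 and 2326 bp (2 h), 2148 and 2336 bp (6 h), 2285 and 1864 bp (12 h), and 0 bp in both lists at 24 h (limma adjusted p = 4.3e-05). Both lists at 24 h stood apart from the other 8, which overlapped one another. H3K4me3 covered 2150 and 2102 bp (24 h), a log2 difference from 0 h of -0.11 (limma adjusted p = 0.71). Gm48730 showed a small and graded change, from 2771 and 2822 bp at 0 h to 2495 and 2457 bp (12 h) and 2500 and 2420 bp (24 h) (-0.17 ± 0.02 SE, limma adjusted p = 0.0083). All lists at 12 h and 24 h were shorter there than all lists before. In a fit of the lists at 0 h and 24 h alone this call was lost (adjusted p = 0.148).

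The F test for H3K27ac passed at 8 noncoding regions, or 2.81% of 285, against 2.43% of all. Besides the 4 at 24 h these were Gm12915, Gm12984, 1700096K18Rik, and 4933407K13Rik. Gm12915 had 5219 to 5441 bp in 8 lists and 0 bp in both at 6 h. At 1700096K18Rik all 5554 bp were covered except at 12 h, when both lists had 0 bp, and at Gm12984 the missing time point was 2 h. 4933407K13Rik varied between 1578 bp at 2 h and 1916 bp at 12 h. In 3 of the 8 regions the peak was thus unlisted at a single intermediate time point and listed before and after it. A peak under the caller's threshold cannot be told apart here from an absent mark.

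The presence of H3K27ac also varied with the width of the region. Of the 260 regions with H3K4me3 in all 10 lists, 44 had H3K27ac in 1 to 9, and in 25 of the 44 every H3K27ac value was either 0 or at least 90% of the region's largest. H3K27ac was in all 10 lists at 89.0% of 100 regions with a mean H3K4me3 length of 2 to 3 kb, but at 50.0% of 24 regions of 4 kb or more. Over all regions the shares were 94.8% of 4158 and 64.9% of 1240. Whole H3K27ac peaks were 6089 to 6703 bp long at E330020D12Rik, 7544 to 7778 bp at 1810026B05Rik (2), and 6770 to 8523 bp at 1700096K18Rik. Lockd, Dleu2 (2), and 5430416N02Rik were other wide regions with H3K27ac of 5 kb or more in some lists and none in others, replicates of a time point included. At Dleu2 (2), for example, H3K27ac covered 0 and 5394 bp at 0 h and 5789 and 0 bp (24 h). The part of peak width in these gains and losses was not tested.

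**Figure D5:**
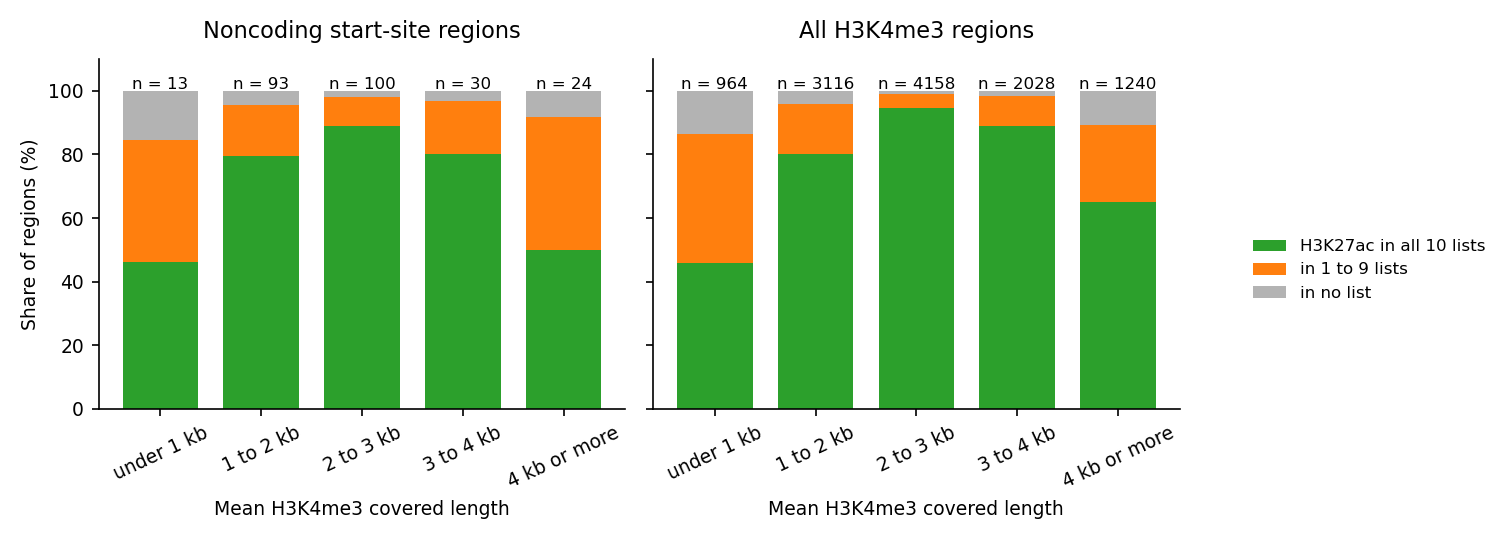
Share of regions, in percent, with H3K27ac in all 10 lists, in 1 to 9, or in none, by mean H3K4me3 covered length, for noncoding TSS regions (left) and all regions (right) with H3K4me3 in all 10 lists. The share in all 10 was highest at 2 to 3 kb and lower at 4 kb or more, in both panels.

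Of the 260 regions with H3K4me3 in all lists, 11 had no H3K27ac in any (4.23%). By mean H3K4me3 length this share ran from 2% (2 to 3 kb) to 15.4% (under 1 kb). Over all regions it ran from 0.962% to 13.7% in the same classes. The longest of the 11 were Malat1, Gm17276 (4224 to 5728 bp), Gm8013 (2005 to 4619 bp), and AC091309.7 (1818 to 3177 bp). The nearest H3K27ac peak of any list was 8082 bp from Malat1 and 3880 bp from Gm17276. At Malat1 the H3K4me3 peaks scored 63.1 to 161, at a mean percentile of 14.3. At Gm8013 and AC091309.7 both lists at 24 h were below both at 0 h, but neither difference passed (limma adjusted p = 0.070 and 0.051). At the other end, Gm26917, Gm16170, Dleu2 (1), and Mir17hg were the widest regions with both histone marks in all lists and CTCF in both. Gm26917 had 6119 to 6503 bp of H3K4me3 and also held the starts of AY036118 and Gm42418, which overlap ribosomal RNA sequence present in many copies, so that its values are uncertain. Gm16170 had 4778 to 6777 bp of H3K4me3, while H3K27ac covered 1849 to 2196 bp of the region.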

How the data were processed

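The data were lists of ChIP-seq peaks from G1E-ER4 cells, 10 for H3K4me3, 10 for H3K27ac, and 2 for CTCF. Per the labels and methods, the authors aligned reads to mm10 with Bowtie2, kept uniquely mapped reads, and called peaks in each sample with MACS without a model. The labels' protocol names a human build. No peak ended beyond a GRCm38 chromosome, and GRCm38 was used. The deposited lists held positions and, in the fifth column, a score taken to be that of the authors' MACS run. Read counts were not used, so depth is unknown and intervals cover counting of regions only.

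TSSs were those of all transcripts in GENCODE M21. The 328 regions and the lists of known RNAs were chosen with earlier results of these data known. Named regions were those on the lists, those past a test, those gained or lost at 24 h (up to 6 each way), the longest, those with the highest F, and extremes of mark combinations.

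Covered length was taken as log2(bp + 200) and fitted with limma 3.58.1 (R 4.3.3, trended eBayes) on the means of the 5 time points, over all regions with the mark in at least 2 lists, with Benjamini-Hochberg adjustment at 0.05. H3K27ac was counted inside the H3K4me3 region and could not exceed its width. Shares have 95% Wilson intervals. Other values came from Python 3.11.15. Alternatives changed the TSS rule, the peaks used, the added length, the scaling, the filter, and the lists fitted. A further promoter sequence is not reported here.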

Additional observations from a re-analysis of the deposited data

How the results depend on the processing

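Among the counts and values that answer a comparison, 94 alternatives left a count within 1.5 times, or a promoter median or share within its 95% interval, and 48 did not. For single regions 113 kept the call and 33 lost it, and none reversed. Settings in which a region was no longer found or tested are not in these counts. At the median score of the pooled lists that was so for every called region except Gm48730. Gm48730 had a value in 20 alternatives, C230038L03Rik in 15, and 1810026B05Rik (2) in 16. Counts over all regions tested stand in brackets after those of the noncoding regions. Keeping peaks that reached the median score of the pooled lists left 109 of 328 regions, with H3K4me3 longer at 0 (18) and shorter at 0 (72), 0 gained (28) and 3 lost (277), H3K27ac in all lists at 130 and in 155 to 175 per list, and CTCF at 0 h in 67. With an equal number of top-scoring peaks per list, 3 were longer (75), 1 shorter (87), 8 gained (193), and 4 lost (215). A fit of the 4 lists at 0 h and 24 h alone called 4 longer (115) and 12 shorter (573) for H3K4me3 and 9 (230) and 6 (273) for H3K27ac, so that calls rose over all regions too. Shorter calls for H3K4me3 numbered 5 (240) with 50 bp added, 8 (243) after scaling by median peak length, and 6 (225) with regions of at least 1 list, against 3 (165). Longer calls for H3K27ac numbered 2 (163) with 1000 bp added, against 1 (169). The promoter GC median was 54.3% over 150 bases either side of the TSS.

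Replicate numbers did not pair the lists, since correlations of same-numbered deviations ran from -0.0758 to 0.0318 for H3K4me3 and from -0.0362 to 0.052 for H3K27ac. With the replicate block, 0 regions were shorter for H3K4me3 (96), 1 was longer (50), and H3K27ac gave 1 longer (123) and 3 shorter (112). The limma adjusted p was then 0.0692 at Pvt1 (2), 0.0767 at Gm29114, and 0.0882 at C230038L03Rik, and none of the other 5 calls for a single region was lost.

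Leaving out 1 list, with the remaining list of that time point assumed to vary like the others, gave 323 to 328 regions. H3K4me3 was then longer at 0 to 3, with 0 without the first list at 0 h (29) or at 24 h (39), 3 without either at 2 h (75 each), and 2 without either at 6 h (71 and 70). It was shorter at 0 to 6, with 0 without either list at 0 h (46 and 53), 1 without either at 2 h (204 and 218), and 6 without the second at 24 h (202). H3K27ac was longer at 1 to 7, with 5 (384) and 6 (285) without the first and second list at 0 h, 7 without either at 2 h (212 each), and 2 without either at 6 h (183 and 182), either at 12 h (165 each), or the second at 24 h (123). It was shorter at 2 to 11, with 11 (391) and 8 (293) without the first and second list at 24 h, against 3 (127). Gained regions numbered 4 to 6, with 6 (191) and 5 (142) without the first and second list at 24 h, against 3 (74). Lost regions numbered 17 to 25, with 25 (992) without the second at 24 h, against 13 (630). H3K27ac was in all remaining lists at 228 to 232. The causes were not tested. The lists carry no depth, so a peak that falls under the caller's threshold in 1 list cannot be told apart from an absent mark.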
